A study of Mus musculus with 9 samples.

Results

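Prm1, Prm2, Tnp1 and Tnp2 encode the protamines and the transition proteins of the mouse, and these 4 genes, chosen by symbol among the 32285 genes counted, were followed through single cell RNA-seq libraries of whole testis. The libraries came from 9 male mice labelled C57BL/6 at PND24 (postnatal day 24), with 1 library per mouse. By the study's methods its lines had been backcrossed to C57BL/6 J. Of these, 4 were control, 2 were NELF-B cKO and 3 were TDP-43 cKO. A cKO mouse carried 1 floxed and 1 null allele of the targeted gene together with the Stra8-iCre transgene, whose recombinase acts in male germ cells from the spermatogonium stage on and not in Sertoli or other somatic cells. It removes exons 1 to 4 of Nelfb, which encodes a subunit of the negative elongation factor, or exon 3 of Tardbp, which encodes the RNA and DNA binding protein TDP-43. Control mice were littermates or other mice of that age, and their labels do not give the alleles they carried. The name under which the library of control replicate 2 was deposited carries the word het, which those of the other control libraries do not, and its genotype is not described further. The questions were how much of these 4 mRNAs the spermatids of each mouse held, and how much of what was counted elsewhere lay in RNA outside cells.

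Spermatids exchange the histones of their chromatin for transition proteins and then for protamines, small arginine-rich proteins that pack the sperm genome. Tnp1 and Tnp2 encode the transition proteins, Prm1 and Prm2 encode the protamines, and all 4 genes are transcribed in round spermatids (RS) well before their mRNA is translated. The mRNAs are stored in the cytoplasm meanwhile and become some of the most abundant transcripts of the testis, so that lysed spermatids can leave large amounts of them outside cells. Prm3, which lies between Prm2 and Tnp2 in the genome and encodes an acidic protein, was followed beside them.

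In GENCODE release M21 on GRCm38 all 5 genes are protein coding and lie on the minus strand. Tnp2 (10787936 to 10788660), Prm3 (10790505 to 10790914), Prm2 (10791380 to 10796134) and Prm1 (10796326 to 10805839) stand next to each other on chromosome 16, whereas Tnp1 lies on chromosome 1 from 73015074 to 73015909. Of the 437 exonic bases of Tnp1, 40 overlap exons of the antisense gene 1700027A15Rik, and the sources used here do not say whether strand was used in counting. The 150 bases before the RefSeq start of each member and of Prm3 are shown because the members moved together across mice although Tnp1 lies on another chromosome. They are the minus strand of the RefSeq annotation of GRCm38.p6, written 5′ to 3′, from chr16:10796824-10796973 for Prm1, chr16:10792106-10792255 for Prm2, chr1:73015900-73016049 for Tnp1, chr16:10788656-10788805 for Tnp2 and chr16:10790915-10791064 for Prm3. The GENCODE spans reach past these RefSeq starts in the 4 members, by a few bases in Tnp1 and Tnp2 and so far in Prm1 and Prm2 that their windows lie inside the spans. Capitals mark a match to TGANNTCA in Prm1, Tnp1 and Prm3 and a run holding TATATA in Prm2 and Tnp2.
Prm1: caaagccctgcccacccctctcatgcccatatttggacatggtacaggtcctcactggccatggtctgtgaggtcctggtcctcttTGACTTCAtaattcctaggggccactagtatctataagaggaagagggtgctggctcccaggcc
Prm2: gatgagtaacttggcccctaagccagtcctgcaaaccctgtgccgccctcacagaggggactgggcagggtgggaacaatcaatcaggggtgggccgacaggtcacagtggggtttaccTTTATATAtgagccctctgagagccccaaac
Tnp1: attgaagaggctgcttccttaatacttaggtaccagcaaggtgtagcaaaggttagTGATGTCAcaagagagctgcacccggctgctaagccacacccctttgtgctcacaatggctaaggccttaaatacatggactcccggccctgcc
Tnp2: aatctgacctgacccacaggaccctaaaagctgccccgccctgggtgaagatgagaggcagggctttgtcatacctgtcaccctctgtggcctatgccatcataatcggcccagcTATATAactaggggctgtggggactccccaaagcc
Prm3: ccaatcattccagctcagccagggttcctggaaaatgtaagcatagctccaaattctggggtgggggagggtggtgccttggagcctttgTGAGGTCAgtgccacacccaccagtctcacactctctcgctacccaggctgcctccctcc

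The letters TGACGTCA, the full site of the cAMP response element that the spermatid activator CREM binds, were searched on both strands before RefSeq starts. The windows searched may be longer than the bases shown, so the percentages below are not rates for the length shown. TGACGTCA stood in 508 of 32841 RefSeq promoters (1.55%) and in 0 of the 4 members. The looser TGANNTCA stood in 11.9% of the promoters and in 2 members, 64 to 57 bases before the start of Prm1 as TGACTTCA and 94 to 87 bases before that of Tnp1 as TGATGTCA. TATATA stood in 5.25% of the promoters and in 2 members, 29 to 24 bases before the start of Prm2 and 35 to 30 bases before that of Tnp2. TATAAA stood in 12.4% of the promoters and, of the members, only in Prm2, on the opposite strand, where its letters overlap those of TATATA.

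Each UMI (unique molecular identifier) counts 1 captured transcript, read from its 3′ end, so that levels were not scaled to transcript length. Levels are given in CPM, the UMIs of a gene scaled by all UMIs of the same mouse and class of barcodes. The libraries held 119203347 to 159407373 UMIs. More than 1000 genes and fewer than 10% mitochondrial UMIs were found in 45132 barcodes, and marker genes gave a cell type to 27522 of them, with the 4 members and Prm3 kept out of the clustering. Median UMIs per barcode that passed ran from 1754 to 6369 in the control mice and from 5165 to 19254 in the cKO mice. No doublets were removed. Among the named cells, 188 had a barcode that named cells of another library also held, 13 of them RS, and 1 RS shared its barcode with an RS of another library.

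The RS-like cells, called RS below, formed 2 clusters that differed in depth. One of 801 cells, with a median of 35002 UMIs, was led by the members themselves and by Smcp, Hils1 and Tssk2 and is called the late RS cluster. The other, of 1944 cells, had a median of 2958.5 UMIs and is called the early RS cluster. Both names are labels drawn from leading genes and depth, and the stage of the cells was not tested. Control replicates 1 to 4 held 780, 294, 576 and 586 RS, the NELF-B cKO mice 372 and 12, and the TDP-43 cKO mice 3, 41 and 81. All 8 RS markers, among them Acrv1 and Tssk3, had UMIs in the RS of every mouse and summed to 3359 to 4578 CPM. The clusters had been named by these markers. Markers of diplotene spermatocytes summed to 986 to 1773 CPM in the same cells and those of spermatogonia to 489 to 817 CPM. Sertoli markers summed to 53.0 to 485 CPM there, highest in NELF-B cKO replicate 2. The part of other cell types in the values below was not tested.

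Nelfb stood at 65.6 to 78.7 CPM in the SG (spermatogonia) of the control mice and at 5.00 and 4.76 CPM in those of the NELF-B cKO mice. In RS it stood at 7.77 to 23.8 CPM in the control mice, 26.2 CPM in NELF-B cKO replicate 1 and 93.9 CPM, from 12 UMIs, in replicate 2, so that the RS of the libraries labelled NELF-B cKO still held transcripts of the targeted gene. Tardbp UMIs come from the 3′ end, outside the deleted exon, and check nothing here. For the tests, the cKO germ cells in which the targeted gene had a UMI were dropped, as the study did, which left 271 and 8 RS for NELF-B cKO and 1, 29 and 59 RS for TDP-43 cKO. Control cells were not dropped, although this choice of cells also moves the members, since in control replicate 1 Prm1 stood at 418 CPM in the RS with a Tardbp UMI and 1159 CPM in those without. Levels are first given with no cell left out.

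Control replicate 2 stood apart from the other control mice in all 4 members, and test values with and without it are given for RS, free RNA and the whole library. NELF-B cKO replicates 1 and 2 also stood apart from each other, and the 2 libraries give no common level for this genotype.

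In RS, the members were high in control replicates 1, 3 and 4 and in NELF-B cKO replicate 1, and low in the other 5 mice. Prm1 reached 763, 15.6, 5279 and 1726 CPM in control replicates 1 to 4. It reached 7839.6 and 15.7 CPM in the NELF-B cKO mice and 19.9, 11.4 and 2.75 CPM in the TDP-43 cKO mice, with 2, 8 and 4 UMIs behind the latter 3 values. Control replicate 2 therefore lay within the range of the TDP-43 cKO mice, and NELF-B cKO replicate 1 above every control mouse.

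Prm2 stood at 648, 23.1, 3135 and 1131 CPM in the RS of the control mice. In the NELF-B cKO mice it stood at 4539.7 and 39.1 CPM, and in the TDP-43 cKO mice at 0, 27.0 and 29.6 CPM. The order of the mice was close to that of Prm1, with control replicate 2 below TDP-43 cKO replicates 2 and 3.

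Tnp2, the transition protein gene of the chromosome 16 cluster, stood at 777, 34.7, 3565 and 1287 CPM in the control mice. It stood at 4671 and 109.6 CPM in the NELF-B cKO mice and at 0, 62.4 and 30.9 CPM in the TDP-43 cKO mice. Control replicate 2 was again among the low mice.

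Tnp1 kept the highest level in the mice with low members. It stood at 740.2, 161, 2638 and 1199.9 CPM in the control mice, at 3572 and 462 CPM in the NELF-B cKO mice, and at 0, 231 and 164 CPM in the TDP-43 cKO mice. The 0 of TDP-43 cKO replicate 1 came from 3 cells, and a count of 0 there allows up to 29.9 CPM, for counting error only. In the other 4 mice with low members, Tnp1 was the highest of the members.

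Prm3 varied far less between mice. It stood at 888, 586, 1061 and 890.1 CPM in the RS of the control mice, 1372 and 1463 CPM in the NELF-B cKO mice and 548, 639 and 558 CPM in the TDP-43 cKO mice. Control replicate 2 and the TDP-43 cKO mice were below the 4 mice with high members here too, but by less than for any member, and NELF-B cKO replicate 2 was the highest of all mice.

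**Figure D1:**
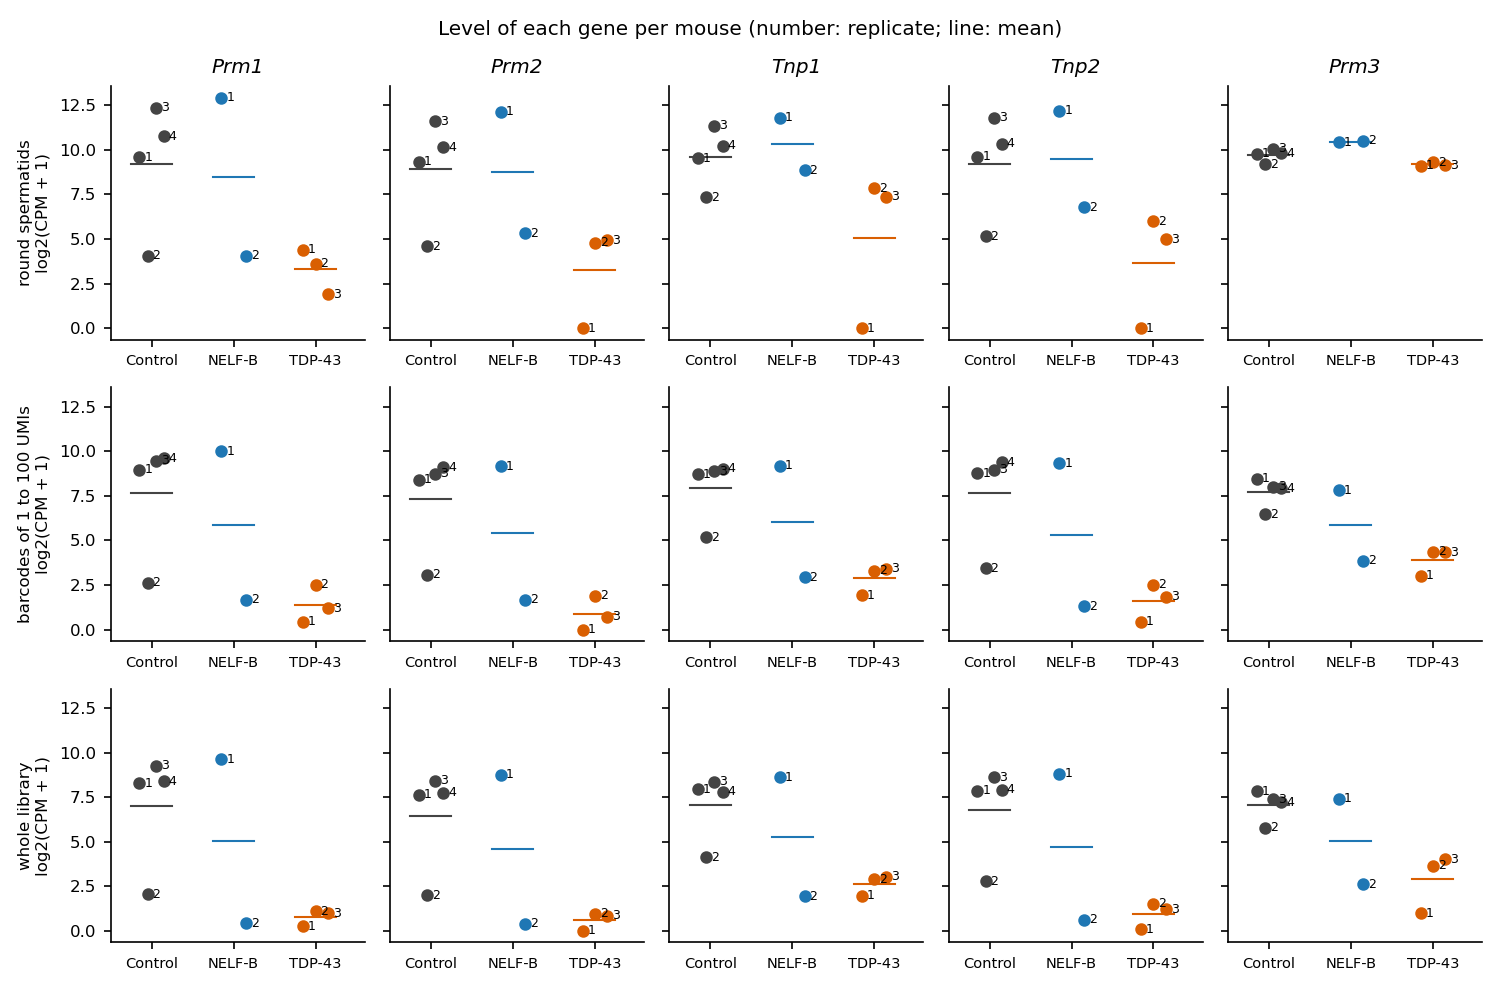
Level of each member and of Prm3, as log2(CPM + 1), in RS with no cell left out, in barcodes of 1 to 100 UMIs and in the whole library; each digit is 1 mouse with its replicate number, and lines are group means. Control replicate 2 lies with the TDP-43 cKO mice for the members in RS (Prm1 at 15.6 CPM), while Prm3 in RS stays between 548 and 1463 CPM in every mouse.

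The members also differed in their shares of the summed member UMIs of RS. In control replicates 1, 3 and 4, Prm1 made up 26.1%, 36.1% and 32.3% of these UMIs and Tnp1 25.3%, 18.0% and 22.5%, and in NELF-B cKO replicate 1 the shares were 38.0% and 17.3%. In control replicate 2, Prm1 made up 6.65% and Tnp1 68.7%. The same turn towards Tnp1 was seen in NELF-B cKO replicate 2 (73.8% of 80 UMIs) and in TDP-43 cKO replicates 2 and 3 (69.7% of 234 and 72.1% of 330 UMIs). In 4 of the 5 mice with low members, most member UMIs of RS therefore belonged to Tnp1, while TDP-43 cKO replicate 1 held only 2 member UMIs, both of Prm1.

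Within a mouse, few RS carried most of the member UMIs. A single cell held 2730 of 17614 member UMIs in control replicate 1, 22137 of 111000 in replicate 3, 9578 of 88070 in replicate 4 and 15363 of 149477 in NELF-B cKO replicate 1. The 10 RS with the most member UMIs held 59.9%, 84.2%, 59.9% and 60.8% of the totals of these mice, while the median RS held 2 to 5 member UMIs. In control replicate 2 the highest cell held 163 of 1790 UMIs and the median RS held 0.

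RS in which members made up at least 1% of all UMIs numbered 40, 44 and 39 in control replicates 1, 3 and 4 and 53 in NELF-B cKO replicate 1. There were 0 among the 294 RS of control replicate 2, 0 of 12 in NELF-B cKO replicate 2, and 0 of 3, 1 of 41 and 0 of 81 in the TDP-43 cKO mice. Of those in control replicates 1, 3 and 4 and NELF-B cKO replicate 1, 32, 25, 14 and 23 lay in the early RS cluster. The highest share in any RS was 26.1% in NELF-B cKO replicate 1, 20.2% in control replicate 3 and 0.319% in control replicate 2. Cells of very high member content were thus seen in 4 mice, and control replicate 2 had none although it had more RS than the TDP-43 cKO mice together. Among all barcodes of over 100 UMIs, members made up at least 10% in 1, 11 and 6 barcodes of control replicates 1, 3 and 4, in 21 of NELF-B cKO replicate 1 and in 0 of the other mice, and the filter on genes and mitochondrial UMIs removed 3 of these 39.

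**Figure D2:**
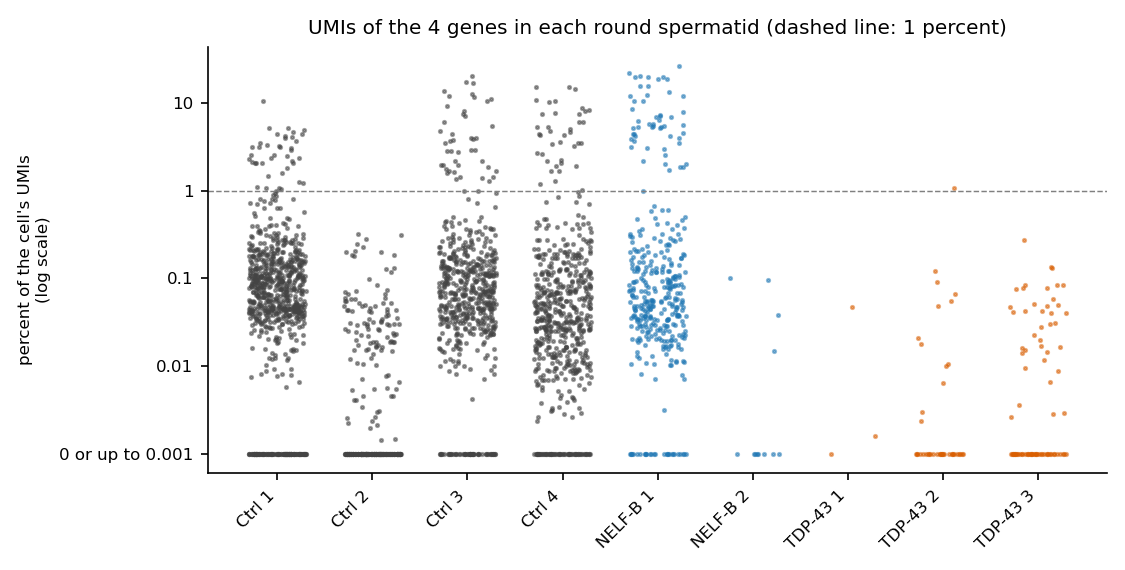
Percent of the UMIs of each RS that came from the 4 members, on a log scale, by mouse, with a dashed line at 1%; each point is 1 cell. Points above the line number 39 to 53 in control replicates 1, 3 and 4 and NELF-B cKO replicate 1, and 0 or 1 in the other mice.

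RS were thinned to 2000 UMIs each, so that depth was equal, which left out the 134, 19, 96 and 37 RS of control replicates 1 to 4, the 29 and 2 of NELF-B cKO and the 8 and 5 of TDP-43 cKO replicates 2 and 3 that were shallower. In the deeper RS that remained, Tnp1 was detected in 45.4%, 13.5%, 43.8% and 38.1% of RS in control replicates 1 to 4, and in 47.8% and 30.0% in the NELF-B cKO mice. It was detected in 15.2% and 18.4% of RS in TDP-43 cKO replicates 2 and 3. The exact 95% interval of control replicate 2 (9.65% to 18.1%) overlapped those of TDP-43 cKO replicates 2 and 3 (5.11% to 31.9% and 10.5% to 29.0%), and NELF-B cKO replicate 2 rested on 3 of 10 cells (6.67% to 65.2%). Without thinning the shares in RS were 57.4%, 30.3%, 58.3% and 67.1% in the control mice, at median depths of 2687, 6598.5, 3486 and 21703 UMIs. In Sertoli cells, which should lack the gene, thinned shares were 16.0%, 2.64%, 19.3% and 8.92% after 113, 180, 56 and 100 shallower cells were left out, at median depths of 2077 to 2703 UMIs before thinning, and every control mouse had a higher share in RS than in Sertoli cells.

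In the late RS cluster, Prm1 stood at 797, 14.5, 6406 and 1842 CPM in the control mice and 9139.6 CPM in NELF-B cKO replicate 1, and in the early RS cluster at 702, 19.6, 838 and 552 CPM and 1422 CPM. TDP-43 cKO replicate 3 had 0 Prm1 UMIs in its 20 cells of the late RS cluster and Tnp1 at 177 CPM, beside 14.5 and 193 CPM in the 90 cells of control replicate 2. The division of the mice was therefore seen in both clusters and was wider in the late one. In free RNA, described further below, Prm1 stood at 5.12 CPM in control replicate 2 and at 497 to 782 CPM in the other control mice. The levels of the early RS cluster in those other mice overlapped this range. How much of the early RS level was free RNA was not tested, so the division there is not read as a separate result for spermatids.

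The comparison of each cKO with control in RS used edgeR's quasi-likelihood test over all genes, with the cells that held the targeted gene dropped. Prm1 then stood at 467, 30.7 and 6.79 CPM in the TDP-43 cKO mice, but the 467 CPM of replicate 1 were 1 UMI in its only RS. The log2 fold change against control was -7.18 (SE 2.06) for Prm1, -5.72 (SE 1.63) for Prm2, -5.25 (SE 1.53) for Tnp2 and -3.08 (SE 1.07) for Tnp1, with edgeR adjusted p-values of 0.125, 0.122, 0.132 and 0.183. A gene was called where its adjusted p was below 0.01 and it changed at least 2-fold, the limits of the study. Of the 4 members edgeR called 0, beside 0.0064% of 15620 genes called lower, and DESeq2 called 0 members and 0% of genes lower. All 4 had an unadjusted edgeR p under 0.05 (0.0024 to 0.0101), as did 2770 of the 15620 genes in either direction. The differences thus missed the threshold once adjusted over all genes.

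Without control replicate 2 all 4 members were called lower in TDP-43 cKO RS, at edgeR adjusted p-values of 3.9e-06 for Prm1, 2.45e-06 for Prm2, 1.15e-05 for Tnp2 and 0.0018 for Tnp1. Of all genes tested, 2.24% were called lower in that fit. The omitted mouse had been set apart by its low members, so that these p-values are not independent of that choice. In RS no member of this mouse passed the limit of Dixon's test for an outlier. Over all alternatives run, adjusted p-values in this comparison ran up to 0.812 for Prm1, Prm2 and Tnp2 and 0.832 for Tnp1, and the log2 fold changes stayed negative, from -16.3 to -3.89 for Prm1. With control RS that held a Tardbp UMI dropped as well, they were -7.63, -6.18, -5.70 and -3.50 for Prm1, Prm2, Tnp2 and Tnp1, at edgeR adjusted p-values of 0.0260, 0.0260, 0.0278 and 0.0705, and with no cell left out the adjusted p-values were 0.423 to 0.429. Prm3 differed from control by -0.80 (SE 0.54, edgeR adjusted p = 0.425) with all mice and was not called without control replicate 2 either (-0.95, adjusted p = 0.363).

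Both cKO comparisons share the control mice. In RS of the NELF-B cKO mice, log2 fold changes were 0.45 (SE 1.31) for Prm1, 0.26 (SE 1.15) for Prm2, 0.07 (SE 0.96) for Tnp1 and 0.13 (SE 1.14) for Tnp2, with edgeR adjusted p-values of 0.971 to 1.00. By edgeR 0 members had an unadjusted p under 0.05, beside 820 of 15620 genes. No member was called by edgeR, beside 0% of genes called lower and 0.032% called higher, or by DESeq2, beside 0% in either direction. These values average NELF-B cKO replicate 1, where Prm1 stood at 5669 CPM in 271 RS, and replicate 2, with 0 Prm1 UMIs in 8 RS. In replicate 1 the RS with a Nelfb UMI, which were dropped, held 10101 CPM of Prm1. The log2 fold changes were 0.78 to 1.04 with no cell left out and 0.09 to 0.44 with control RS that held a Nelfb UMI dropped as well. Without control replicate 2 they were 0.05 for Prm1, -0.14 for Prm2, -0.30 for Tnp1 and -0.27 for Tnp2, so that the direction turned in 3 of the 4 members, at edgeR adjusted p-values of 0.906 to 0.995.

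Free RNA was read from barcodes of 1 to 100 UMIs, which hold too few transcripts for a cell. They numbered 1003974 to 1797785 per library, and whether each was a droplet was not tested. In control replicate 1, 1796706 of 1797785 had 1 to 20 UMIs. Of the barcodes of up to 1000 UMIs, those above 500 held the most UMIs in the control mice and NELF-B cKO replicate 1. Those above 100 and up to 500 UMIs did in the other cKO mice. In control replicate 3, barcodes above 500 and up to 1000 UMIs held 46781505 UMIs, beside 3622326 in those of 1 to 100. How much of the former was free RNA was not tested. In barcodes of 1 to 100 UMIs, Prm1 stood at 497, 5.12, 712 and 782 CPM in the control mice. It stood at 1023 and 2.21 CPM in the NELF-B cKO mice and at 0.352, 4.74 and 1.28 CPM in the TDP-43 cKO mice. Control replicate 2 was low outside cells as it was in RS. Its 5.12 CPM rest on 16 UMIs and the 4.74 CPM of TDP-43 cKO replicate 2 on 7 UMIs, too few to order these mice.

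Tnp1 stood at 420.2, 34.9, 469 and 515 CPM in the free RNA of the control mice, 576 and 6.63 CPM in that of NELF-B cKO and 2.82, 8.81 and 9.63 CPM in that of TDP-43 cKO. Prm2 ranged over 7.37 to 543 CPM in the control mice and 0 to 2.71 CPM in the TDP-43 cKO mice, and Tnp2 over 9.93 to 662 CPM and 0.352 to 4.74 CPM. For all 4 members every TDP-43 cKO mouse was lower than every control mouse, as it was for 23.7% of the 21240 genes with 10 or more UMIs. For Prm1 this rests on 16 UMIs in control replicate 2 and 7 in TDP-43 cKO replicate 2, within counting error. Between NELF-B cKO and control the groups overlapped for all 4 members, while every NELF-B cKO mouse was lower for 7.74% of genes and higher for 13.6%.

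In free RNA, log2 fold changes of the TDP-43 cKO mice against control were -8.44 (SE 2.36) for Prm1, -8.80 (SE 2.31) for Prm2, -6.15 (SE 1.56) for Tnp1 and -7.85 (SE 2.16) for Tnp2, with edgeR adjusted p-values of 0.0199, 0.0167, 0.0156 and 0.0190. At an adjusted p under 0.01 edgeR called 0 members and 0% of 16739 genes lower, while DESeq2 called all 4, beside 22.3% of genes. All 4 had an unadjusted edgeR p under 0.05 (0.0031 to 0.0055), as did 10028 of the 16739 genes in either direction. At an adjusted p under 0.05 edgeR called all 4, beside 26.3% of genes called lower. Prm3 was lower as well, by -4.40 (SE 0.98, edgeR adjusted p = 0.0130). Without control replicate 2 the members' values for TDP-43 cKO ran from -9.21 to -6.54 and their edgeR adjusted p-values from 0.0174 to 0.0181. For NELF-B cKO the log2 fold changes ran from -0.45 to -0.09, or from -0.86 to -0.50 without control replicate 2. With all mice 0 members had an unadjusted edgeR p under 0.05, beside 2652 of 16739 genes. Neither edgeR, beside 0% of genes in either direction, nor DESeq2, beside 0.00597% lower and 0.0597% higher, called a member there. In sums over a library or over free RNA, fewer spermatids and less mRNA per spermatid cannot be told apart.

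Other spermatid transcripts were set beside the members as tracers, 14 RS genes such as Acrv1, Tsga8 and Spaca1. Several of them are also among the markers that named the RS, so that their level in RS was in part fixed by the naming. It summed there to between 4632 CPM in control replicate 2 and 6175 CPM in control replicate 4. In free RNA, which was not chosen by markers, it was 730 CPM in control replicate 2, 1601 to 2232 CPM in the other control mice, 1178 and 112 CPM for NELF-B cKO and 45.8 to 214 CPM for TDP-43 cKO. In barcodes above 500 and up to 1000 UMIs it was 364 CPM in control replicate 2 and 916 to 1784 CPM in the other control mice. There it was 1118 and 105 CPM for NELF-B cKO and 44.2 to 263 CPM for TDP-43 cKO, and ratios to free RNA depend on the range chosen. In RS there were 0.526, 0.0506, 2.51 and 0.865 member UMIs per tracer UMI for control, 3.52 and 0.105 for NELF-B cKO and 0.00391, 0.0666 and 0.0449 for TDP-43 cKO. In free RNA there were 0.755, 0.0786, 1.31 and 1.56 for control, 2.39 and 0.111 for NELF-B cKO and 0.0769, 0.102 and 0.0661 for TDP-43 cKO. The same 4 mice were high in both.

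The level in RS was then divided by that in free RNA of the same mouse, for the 7 mice with at least 10 RS after cells were left out. For Tnp1 this ratio was 1.76, 4.62, 5.62 and 2.33 for control, 4.40 in NELF-B cKO replicate 1 and 27.3 and 14.8 in TDP-43 cKO replicates 2 and 3. For Prm1 it was 1.54, 3.04, 7.41 and 2.21, then 5.54, then 6.48 and 5.28. The ratio was over 1 in all 7 mice for all 4 members, lowest in control replicate 1. The log2 ratio of TDP-43 cKO exceeded that of control by 0.98 for Prm1 (exact permutation p = 0.4), and by 2.77 for Prm2, 2.65 for Tnp1 and 2.17 for Tnp2 (two-sided exact permutation p = 0.133 each, the smallest that 4 against 2 mice allow, and 0.356 adjusted over 8 tests). The free RNA of these TDP-43 cKO mice held 1 to 15 UMIs of each member, and with no cell left out the difference for Prm1 was -0.38. For NELF-B cKO replicate 1 alone the differences ran from 0.45 to 0.91. The other 4 of the 8 tests are of this 1 mouse, where an exact permutation p cannot go below 0.4, and nothing is read from them. NELF-B cKO replicate 2 had enough RS only with no cell left out, and its 12 cells then gave ratios of 7.08 for Prm1, 17.7 for Prm2, 69.6 for Tnp1 and 74.3 for Tnp2, from 4 to 18 UMIs in free RNA, beside 6.20 to 7.90 in replicate 1.

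Over the whole library, with no choice of barcodes, Prm1 stood at 308, 3.13, 609 and 338 CPM in the control mice. It stood at 786 and 0.345 CPM in the NELF-B cKO mice and at 0.209, 1.13 and 0.972 CPM in the TDP-43 cKO mice. Tnp1 stood at 247, 16.5, 329 and 223 CPM, at 391 and 2.81 CPM and at 2.89, 6.46 and 7.14 CPM in the same order. For all 4 members every TDP-43 cKO library was lower than every control library, which 27.6% of 27931 genes also were. The NELF-B cKO and control libraries overlapped for all 4, beside 6.54% of genes lower and 18.7% higher in both NELF-B cKO libraries.

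The log2 fold changes of TDP-43 cKO against control in the whole library were -9.03 (SE 2.67) for Prm1, -8.72 (SE 2.70) for Prm2, -5.57 (SE 1.63) for Tnp1 and -8.03 (SE 2.45) for Tnp2, with edgeR adjusted p-values of 0.0304 to 0.0331. edgeR called 0 members at an adjusted p under 0.01, beside 0% of 25540 genes called lower, and all 4 at under 0.05, beside 27.4% of genes. Their unadjusted edgeR p-values were 0.0086 to 0.0114, and 15859 of the 25540 genes had one under 0.05 in either direction. DESeq2 called all 4 lower, beside 22.3% of genes. Without control replicate 2 the edgeR adjusted p-values were 0.0401 to 0.0427, with log2 fold changes of -9.44 to -5.96. For NELF-B cKO the values ran from -0.19 to 0.19, or from -0.58 to -0.22 without that mouse. There 0 members were called by edgeR, beside 0% of genes in either direction, or by DESeq2, beside 0.0783% lower and 0.376% higher. With all mice 0 members had an unadjusted edgeR p under 0.05, beside 4766 of 25540 genes.

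A large part of the member UMIs lay outside the cells named RS. Of the Prm1 UMIs, 11.2%, 26.4%, 46.5% and 52.8% lay in RS in control replicates 1 to 4 and 49.6% and 4.76% for NELF-B cKO. Barcodes that did not pass the filter held 77.5%, 32.4%, 46.4% and 40.9% of them in the control mice and 43.8% in NELF-B cKO replicate 1. In control replicate 1, barcodes of over 1000 UMIs that failed the filter held 42.6% alone. Barcodes above 500 and up to 1000 UMIs held 29.9%, 6.67%, 35.7% and 28.1% of the Prm1 UMIs in control replicates 1 to 4. They held 35.9% in NELF-B cKO replicate 1. In the TDP-43 cKO mice RS held 3.42% to 7.41% of 27 to 135 Prm1 UMIs, and of the 373 Tnp1 UMIs of replicate 1, 78.3% lay in named cells of other types.

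**Figure D3:**
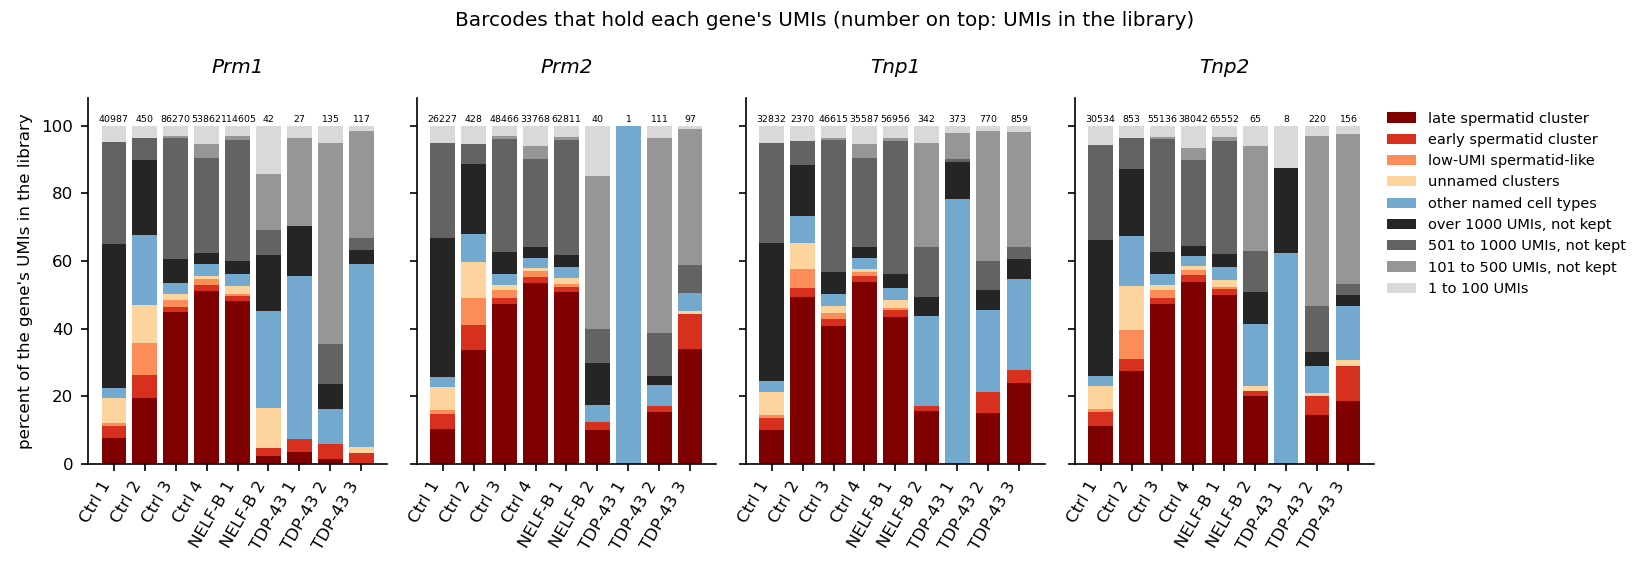
Percent of the UMIs of each gene that lay in each class of barcodes, by mouse: the RS clusters, spermatid-like clusters of few UMIs, unnamed clusters, other named cell types, and barcodes that did not pass the filter by their number of UMIs. RS hold 11.2% to 52.8% of Prm1 in the control mice, and 1 to 100 UMI barcodes hold under 7% of any member there. Barcodes above 500 and up to 1000 UMIs hold 6.67% to 35.7% of Prm1 in the control mice.

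In the other cell types, too, control replicate 2 stood far below the other control mice. Prm1 stood at 136, 1.14, 85.3 and 47.1 CPM in the Sertoli cells of the control mice, which nurse the germ cells and do not express it. It stood at 49.9, 0.739, 71.0 and 31.6 CPM in SG, at 45.3, 0.377, 74.9 and 37.7 CPM in pL, L and Z SC (preleptotene, leptotene and zygotene spermatocytes), and at 22.5, 1.97, 37.6 and 17.3 CPM in P SC (pachytene). D SC (diplotene) followed with 19.0, 1.01, 32.8 and 15.0 CPM, and Leydig cells had 32.4, 0.930, 42.3 and 19.5 CPM. In the 3 control mice with high members, RS were the highest class by far and Sertoli cells came next among these types. SG and pL, L and Z SC followed in no fixed order, then Leydig cells, P SC and D SC, whose ranges over the 3 mice overlapped.

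In the TDP-43 cKO mice, Prm1 had 0, 2 and 0 UMIs in the Sertoli cells, from 600, 324 and 350 cells. In pL, L and Z SC it stood at 0.296, 0.279 and 0.237 CPM, from 3 or 4 UMIs per mouse, and Tnp1 at 0.197, 0.627 and 0.592 CPM. NELF-B cKO replicate 1 had 109 CPM of Prm1 in pL, L and Z SC and replicate 2 had 0.133 CPM. The 5 mice with low members were thus low in these cells too. In TDP-43 cKO replicate 1 all 3 Prm1 UMIs of pL, L and Z SC lay in 1 cell. The order of the TDP-43 cKO mice rests on too few UMIs to be set beside that of their free RNA.

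**Figure D4:**
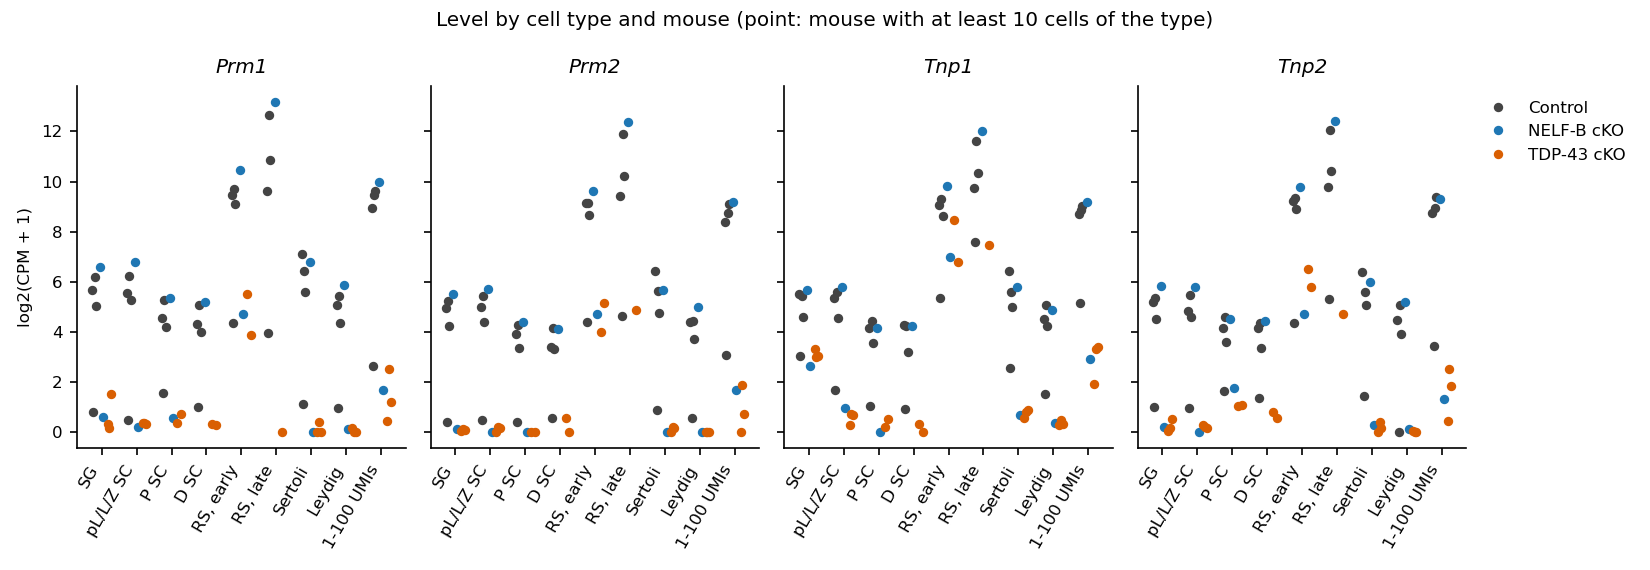
Level of each member, as log2(CPM + 1), by cell type and in barcodes of 1 to 100 UMIs, with 1 point per mouse of at least 10 cells. RS clusters stand highest in the mice with high members, and in cell types other than RS control replicate 2 (Prm1 at 0.377 to 1.97 CPM) lies near the cKO mice with low members.

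In pL, L and Z SC the members of the TDP-43 cKO mice had edgeR adjusted p-values of 0.0127 to 0.0282, and 0 were called lower at under 0.01, beside 10.9% of 15415 genes, while DESeq2 called all 4, beside 13.3%. With a replicate block edgeR called all 4 lower there, beside 756 of 15415 genes. Without control replicate 2 it called some of them, beside 1474 of 15105 genes. In Sertoli cells, which keep Tardbp, the adjusted p-values were 0.0387 to 0.0411, and edgeR called 0 members beside 0% of 14883 genes, while DESeq2 called all 4, beside 8.62%. In both types all 4 members had an unadjusted edgeR p under 0.05. So did 8146 of 15415 genes in pL, L and Z SC and 4485 of 14883 in Sertoli cells, in either direction. For NELF-B cKO, 0 members had an unadjusted edgeR p under 0.05 in either type, beside 5726 of 15415 and 1527 of 14883 genes. Neither tool called a member in either type. Beside this stood 1.04% of genes lower and 1.89% higher by edgeR and 4.13% and 3.72% by DESeq2 in pL, L and Z SC, and 0% in both directions by edgeR and 0.00672% and 0.128% by DESeq2 in Sertoli cells. These are differences of UMIs counted in cells not known to express the genes. Free RNA of TDP-43 cKO differed in the same direction, and the source of these UMIs was not tested.

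The 14 tracers, which Sertoli cells were taken to lack, were used to estimate how much of the UMIs of a Sertoli cell were free RNA. This share was 22.4%, 15.5%, 11.2% and 9.39% for control, 13.9% and 23.3% for NELF-B cKO and 41.5%, 17.3% and 16.0% for TDP-43 cKO. The Tnp1 level in Sertoli cells was 0.903, 0.899, 0.896 and 0.638 times what this share of the free RNA gave in the control mice, and 0.400 to 0.678 times in the 5 cKO mice. Prm1 stood at 1.22, 1.44, 1.07 and 0.641 times this amount in the Sertoli cells of the control mice, Prm2 at 1.14, 0.752, 1.02 and 0.511 times and Tnp2 at 0.848, 1.12, 0.858 and 0.518 times, and the 1.44 of control replicate 2 rests on 4 UMIs. In D SC the level of Tnp1 was 0.162 to 0.340 times this amount in the control mice, and that of Prm1 0.171, 1.27, 0.410 and 0.204 times. The estimate takes free RNA to enter droplets of every type in equal share. In NELF-B cKO replicate 2 and the TDP-43 cKO mice the median Sertoli cell held 3698 to 22982 UMIs. The estimated share of it was above 500 UMIs there, more than the barcodes that held most UMIs below cell size. The shares of these 4 mice are therefore not read as measured free RNA, and amounts built on them are a scale only.

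Tnp1 in SG lay above the amount that this estimate gave in all 5 mice with low members. It stood at 44.4, 7.14, 41.8 and 23.4 CPM in the control mice, 50.4 and 5.12 CPM in the NELF-B cKO mice and 8.87, 7.05 and 7.17 CPM for TDP-43 cKO. In control replicates 1, 3 and 4 and NELF-B cKO replicate 1 this was 0.471 to 0.795 times the amount expected from free RNA, whereas it was 1.32 times in control replicate 2, 3.31 times in NELF-B cKO replicate 2 and 7.59, 4.61 and 4.64 times for TDP-43 cKO. The other members did not show this in every low mouse: Prm1 stood at 0.931, 0.964, 1.61 and 0.156 times in control replicate 2, NELF-B cKO replicate 2 and TDP-43 cKO replicates 1 and 2, and at 9.16 times in replicate 3, where 21 of 55 UMIs lay in 1 cell.

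In the mice with low members, the Tnp1 level within SG was higher in the cluster that held the stem cell marker Gfra1. There Tnp1 stood at 11.2 CPM in control replicate 2, 8.33 CPM in NELF-B cKO replicate 2 and 12.1, 11.3 and 11.6 CPM in the TDP-43 cKO mice, beside 5.89, 2.56, 4.47, 4.10 and 4.10 CPM in the other SG clusters. It was found in 26 of 98 cells in control replicate 2 (26.5%), 31 of 179 in NELF-B cKO replicate 2 (17.3%) and 128 of 393, 83 of 332 and 105 of 388 cells in the TDP-43 cKO mice (25% to 32.6%). Of these cells 26, 30, 127, 82 and 102 held no other member, and Prm1 stood at 0.105 to 0.421 CPM in the cluster. In Sertoli cells of the TDP-43 cKO mice, at median depths of 6644.5 to 22982 UMIs against 26868 to 39269 UMIs in the Gfra1 cluster, 1.00% to 2.00% of cells had a Tnp1 UMI. Thinned to 2000 UMIs, the shares of the 5 mice were 3.09%, 0.559%, 2.81%, 0.904% and 2.06% in the Gfra1 cluster and 2.64%, 0.388%, 0%, 0% and 0.323% in Sertoli cells, close to the limit of detection. In the mice with high members, Tnp1 was found without thinning in 45.5%, 58.6% and 45.5% of the Gfra1 cluster cells of control replicates 1, 3 and 4 and in 41.3%, 49.6% and 28.7% of their other SG. NELF-B cKO replicate 1 had 37.8% and 44.5%. A higher share in this cluster was thus not particular to the mice with low members, but depth, which raises such a share, was not equal. In these control mice median depths were 18853, 20648 and 22354 UMIs in the Gfra1 cluster and 11507, 15528 and 15045 UMIs in other SG.

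The antisense gene 1700027A15Rik, whose exons overlap Tnp1, stood at 0.523, 0.945 and 0.590 CPM in the Gfra1 cluster of the TDP-43 cKO mice, below Tnp1, and 0.160 CPM in NELF-B cKO replicate 2. In SG as a whole, Tnp1 differed from control by -1.96 (SE 0.82, edgeR adjusted p = 0.184) in TDP-43 cKO and by -0.11 (adjusted p = 0.970) in NELF-B cKO. With the expected free RNA subtracted the values were 3.86 and 1.64, that is, the direction turned. The subtraction set counts below the expected amount to 0, as in the mice with high members. It thus fixed this turn, and nothing is read from it. Without subtraction edgeR called 0 members in SG, beside 0.00545% of 18341 genes lower in each cKO. All 4 had an unadjusted edgeR p under 0.05 in TDP-43 cKO (0.00904 to 0.0406), as did 4511 of the 18341 genes in either direction. DESeq2 called Prm1, Prm2 and Tnp2 lower in the SG of TDP-43 cKO mice, beside 2.92% of genes, and not Tnp1, and it called 0 members in NELF-B cKO, beside 0.0491% lower and 0.114% higher.

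Other genes of the exchange were taken from 5 lists. In the list of other spermatid nuclear basic proteins, 0 of 8 genes tested were called in RS of TDP-43 cKO mice by edgeR or DESeq2, with a median log2 fold change of -1.09, beside -5.48 over the 4 members and -0.11 over all genes tested. Hils1, a spermatid linker histone, stood at 972, 719, 1181 and 1116 CPM in the RS of the control mice, 1339 and 1017 CPM in the NELF-B cKO mice and 827, 802 and 717 CPM in the TDP-43 cKO mice. H1fnt, another spermatid linker histone, stood at 254, 50.6, 346 and 239.6 CPM in the control mice, 392 and 243 CPM in the NELF-B cKO mice and 0, 46.8 and 75.0 CPM in the TDP-43 cKO mice. H2al2a, the histone variant that opens nucleosomes to the transition proteins, stood at 95.2, 8.78, 224 and 107.9 CPM, at 259.9 and 15.7 CPM and at 0, 7.10 and 4.13 CPM. H2al2a divided the mice as the members did. H1fnt and Hils1, like Prm3, were lower in control replicate 2 and the TDP-43 cKO mice than in the 4 mice with high members, but not in NELF-B cKO replicate 2, and Hils1 differed least.

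Among 20 regulators of transcription and chromatin in the exchange, 0 were called in RS of either cKO by edgeR or DESeq2, and the median in TDP-43 cKO was -0.06. Crem, the activator of spermatid genes, stood at 511 to 571 CPM in the control mice, 474 and 540 CPM for NELF-B cKO and 489.6 to 558 CPM for TDP-43 cKO. Fhl5, its coactivator, stood at 222, 109.9, 314 and 265 CPM in the control mice, at 333 and 329 CPM in the NELF-B cKO mice and at 135 to 142 CPM in the TDP-43 cKO mice. Hspa2, a chaperone of the transition proteins, ranged over 690 to 998 CPM, 556 to 631 CPM and 736 to 1126 CPM in these groups, and Psme4, of the proteasome that degrades acetylated histones, over 185 to 242, 237 to 266 and 129 to 289 CPM. Of these 4 genes only Fhl5 was low in control replicate 2 beside the other control mice.

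The lists of translational regulators (11 genes), late spermatid cytoskeleton and tail genes (12) and spermatid tracers (14) likewise had 0 genes called in RS of either cKO by either tool, with medians in TDP-43 cKO of -0.85, -1.07 and -0.68. These medians rest on the cells kept for the tests, and with no cell left out, as in the levels given here, they were -0.19, -0.45 and -0.34, beside -1.38 for the other nuclear basic proteins and -0.15 for the regulators. Ybx2, which binds and stores protamine mRNA, stood at 518 to 688 CPM in the control mice and 492 to 648 CPM in the TDP-43 cKO mice, and Smcp, a capsule protein of sperm mitochondria, at 892 to 1624 and 956 to 984 CPM. Ybx3, Pabpc1 and Paip2, which also act on stored mRNA, Oaz3, Odf2 and Ldhc among the tail genes, and Spaca1, Tsga8, Tssk1 and Tssk2 among the tracers were in the RS of every mouse at 282 CPM or more. Without control replicate 2, edgeR called H2al2a, H1fnt, Fhl5, Tssk6, Piwil1, Spata3, Spem1 and Tex29 lower in TDP-43 cKO RS, that is 2, 2, 1, 2 and 1 genes of the 5 lists, beside 2.24% of all genes. In NELF-B cKO RS the same omission left 1 list gene called, the testis histone gene Hist1h2aa, which was called higher, as were 105 of all 13827 genes tested, although it stood at only 0 to 17.2 CPM in the RS of the 9 mice.

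In the whole library the medians of TDP-43 cKO against control were -3.57 in the other nuclear basic proteins, -0.85 in the regulators, -1.53 in the translational regulators, -3.70 in the tail genes and -3.63 in the tracers, beside -8.38 over the members and 0.10 over all genes tested. edgeR called 0 genes of these lists there, while DESeq2 called lower 6 of 8, 7 of 20, 6 of 11, 11 of 12 and 14 of 14 genes in the same order, and 1 regulator higher, where it called 22.3% of all genes lower. The departure of control replicate 2 from the other control mice in RS was described by the same lists, over genes of at least 50 CPM. Its level was 0.0163 times the mean of the other control mice in the median member, 0.0060 times for Prm1 and 0.106 times for the highest, Tnp1. The median was 0.400 in the other nuclear basic proteins, 1.10 in the regulators, 1.07 in the translational regulators, 0.717 in the tail genes and 0.842 in the tracers. Tssk6, a spermatid kinase, was the lowest of the regulators at 0.0488 times. The low members of this mouse were therefore accompanied by a few low spermatid genes, while most listed genes stood near the level of the other control mice.

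Over 93 sums of a mouse and cell type, the genes whose log2(CPM + 1) was most like that of a member were mainly the other members. For Prm1 the 3 nearest of 19103 genes were Prm2, Tnp2 and Tnp1, with Pearson r of 0.976, 0.968 and 0.907, and for Tnp2 they were Prm2, Prm1 and Tnp1 (0.980, 0.968 and 0.952). For Tnp1 they were Tnp2, Prm2 and Cypt4 (0.952, 0.950 and 0.931). These are descriptions, since sums of a mouse share its library and its free RNA.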

How the data were processed

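Single cell RNA-seq of whole testis from 9 mice at PND24 was used, with 1 library per mouse. Per the file headers and the study's methods, the authors mapped the 3′ reads with Cell Ranger to mm10, and the deposited matrices hold raw counts of UMIs per gene and barcode, not normalized and before any choice of cells. The submitters' processing notes name Cell Ranger 6.1.1 and 7.0.0, Seurat 4.2.0 and DESeq2 1.36. Strand use in counting is not given in the sources used here.

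Barcodes needed more than 1000 genes and less than 10% mitochondrial UMIs, and genes a UMI in more than 15 such barcodes. Clusters (40 principal components, 20 neighbours, leidenalg 0.10.2, resolution 0.8) took names from marker genes, and 23 of 34 were named. The 4 members, Prm3, Nelfb and Tardbp never entered the clustering. Clusters with a median below 2000 UMIs stayed unnamed. No doublet caller was run. Barcodes of 1 to 100 UMIs were summed as free RNA.

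UMIs were summed per mouse and class, in germ cell types without the cells of cKO mice (but not of control mice) that held a UMI of the targeted gene, and edgeR 4.0.16 (filterByExpr, TMM, quasi-likelihood test) in R 4.3.3 was fitted over all genes and 9 mice, with Benjamini-Hochberg adjustment and two-sided tests. SE is the log2 fold change divided by the root of F. DESeq2 1.42.0, other scalings, filters, barcode ranges, cell choices, a replicate block and the omission of each mouse were alternatives, and 3 of them were chosen after seeing the data (the late RS cluster alone, barcodes above 500 UMIs, and RS without the 10 cells of most member UMIs in each mouse). The scripts were tested on simulated data. P-values measure the spread between mice labelled as replicates, and intervals cover counting error only. Cell types of fewer than 10 cells in a mouse were left out there, except RS, where the test kept mice of 1 and 8 cells.

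Genes named are the members, Prm3, genes of the 5 lists that edgeR called in RS with or without control replicate 2, the 4 genes of each list highest in control RS, and the 3 genes most like each member. Some marker genes, the targeted genes and the antisense gene of Tnp1 are named as well. The members and lists were chosen with earlier results of these data known.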

Additional observations from a re-analysis of the deposited data

Results flagged for a closer look

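Control replicate 2 lay further from the other 3 control mice than the 95% limit of Dixon's test on log2(CPM + 1) allows for 4 samples in 9 of 24 combinations of a member with a class of barcodes. Chance gives about 1 in 20 for a single test, and these tests are of members that move together in the same 4 mice and of classes that overlap, so that they are not independent. In free RNA it had 5.12 CPM of Prm1 against 497 to 782 CPM in the other control mice. Prm2 was at 7.37 CPM against 334 to 543 CPM, Tnp1 at 34.9 CPM against 420.2 to 515 CPM and Tnp2 at 9.93 CPM against 433 to 662 CPM. In the whole library it had 3.13 CPM of Prm1 against 308 to 609 CPM, 2.98 CPM of Prm2 against 197 to 342 CPM, 16.5 CPM of Tnp1 against 223 to 329 CPM and 5.94 CPM of Tnp2 against 229 to 389 CPM. Prm1 in the early SC (pL, L and Z) stood at 0.377 CPM against 37.7 to 74.9 CPM. In RS no member passed the same limit. What sets this mouse apart was not tested.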

How the results depend on the processing

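Counts of members called, or of members with a higher ratio of RS to free RNA, stayed within 1.5 times the reported count in 204 cases and moved further in 18. Every reported count of members called was 0, so that such a count stayed only where it was 0 again and moved with any call. For TDP-43 cKO, the number of members called in RS was 4 without control replicate 2 and ran from 0 to 4 as each mouse was left out. In free RNA it was 4 at an adjusted p under 0.05, with DESeq2 and with only the mice of the 2 groups, and 3 without a filter on low counts. In the whole library it was 4 at an adjusted p under 0.05, with DESeq2 and with only the 2 groups. In SG it was 3 with DESeq2. In pL, L and Z SC it was 4 at an adjusted p under 0.05, with DESeq2, without a filter, with only the 2 groups and with the replicate block, and ran from 0 to 3 as each mouse was left out (3 without control replicate 2). In Sertoli cells it was 4 at an adjusted p under 0.05, with DESeq2 and with only the 2 groups. Of all genes, 3582 of 15368 were called lower in free RNA with only the 2 groups and 1969 of 26545 without a filter, and 4258 of 24768 in the whole library with only the 2 groups. In pL, L and Z SC they were 3715 of 15415 at an adjusted p under 0.05, 2097 of 26056 without a filter, 1992 of 14325 with only the 2 groups, 756 of 15415 with the block and 1474 of 15105 without control replicate 2, and in Sertoli cells 1214 of 14883 at an adjusted p under 0.05 and 587 of 13845 with only the 2 groups. The cause was not tested.

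The members' fold changes for TDP-43 cKO were negative in 225 of 226 values over all alternatives. The exception was Tnp1 in SG with free RNA subtracted (3.86, and 1.64 for NELF-B cKO), where the turn was fixed by the subtraction itself. For NELF-B cKO, 38 of 213 values turned against the reported direction. Over the omission of each mouse the values ran from -16.2 to 1.65, -15.5 to 1.27, -6.39 to 0.95 and -15.7 to 1.13 for Prm1, Prm2, Tnp1 and Tnp2 in RS, and -8.00 to 0.93, -7.39 to 0.71, -5.96 to 0.57 and -8.25 to 0.57 in free RNA. They were -9.93 to 1.19, -9.27 to 1.06, -6.29 to 0.80 and -8.77 to 0.92 in the whole library, and -2.75 to 0.83 for Tnp1 in SG. The lowest came without NELF-B cKO replicate 1, which leaves a lone mouse that is assumed to vary like the other groups. In free RNA of NELF-B cKO, Prm1 turned to 0.04 with library totals only, 0.26 in barcodes above 100 and up to 500 UMIs and 0.17 above 500 UMIs. Prm2 turned to 0.0020 and 0.05 in the same barcodes, Tnp1 to 0.04 and Tnp2 to 0.09 in the lower range. In the whole library Prm2 turned to -0.01 with DESeq2, -0.01 with RLE scaling and -0.08 with the replicate block, and Tnp2 to 0.06 with library totals only. The log2 ratio of RS to free RNA turned to -0.38 for Prm1 of TDP-43 cKO with no cell left out and to -0.48 for Tnp1 of NELF-B cKO in barcodes above 100 and up to 500 UMIs.

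The labels share replicate numbers, which were not taken to pair the mice. Deviations of same-numbered mice correlated at 0.48 and 0.44 between control and NELF-B cKO, with only 2 pairs, and at -0.22, -0.16 and -0.0018 between control and TDP-43 cKO. Only in pL, L and Z SC of TDP-43 cKO did the replicate block move the count of members called (4, against 0 in RS, free RNA, the whole library, SG and Sertoli cells). Without control replicate 2, 310 genes were called lower and 348 higher in TDP-43 cKO RS, against 1 and 0 with it. Depth limits RS of TDP-43 cKO replicate 1 (1 cell tested) and NELF-B cKO replicate 2 (8 cells), and free RNA of the cKO mice with low members, where a member rests on 0 to 18 UMIs.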
